A study of Mus musculus with 24 samples.

Results

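The transcripts described here are those of the mitochondrial genome, taken as every row of the expression table whose gene symbol starts with mt-. The rule gave 15 of 23891 rows, of which 13 encode proteins and 2 are ribosomal RNAs (rRNAs). In the GENCODE annotation of the mouse genome (GRCm38) the mitochondrial chromosome has 37 genes, and the rule gave no row for the 22 tRNA genes among them. RNA-Seq had been performed on the left lung lobe of 24 mice labelled C57BL/6, of both sexes, given in the methods as wild-type BL/6J. By the labels, naïve adult mice (n = 5) were 20 wk old and had been given saline. The other 3 groups were 80 wk old. One of them had also been given saline and is called naïve aged (n = 5). By the methods, mice of the HDM group (n = 7) were sensitized and challenged with extract of house-dust mite, a common allergen, 50 µg at a time. The HDM + Dex group (n = 7) received, beside HDM, the glucocorticoid dexamethasone (Dex), 4 mg/kg each 72 h, and tissue was collected 24 h after the final challenge. Values are CPM, the reads of a gene scaled to a common total per sample, and all groups differ only in age, HDM and Dex as far as the labels say. The labels do not say whether the samples of a group came from separate cages or days, so p-values measure the spread between these samples only. The study's text gives fewer mice than this for the HDM and HDM + Dex groups, and the labels were followed.

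Mammalian mitochondrial DNA is a small circle that encodes proteins of the respiratory chain and of ATP synthase, along with the rRNAs and tRNAs needed to make them. It is transcribed from both strands into long precursors, which are cut at the tRNAs between the genes, so that the messengers of a strand start from a common transcript. The rest of the machinery, including the polymerase, the processing enzymes and most respiratory subunits, is encoded in the nucleus. In lung, ciliated and club cells, type 2 alveolar cells and the heart muscle that surrounds the pulmonary veins of the mouse are rich in mitochondria.

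The estimated depth ran from 10.1 to 33.1 M reads per sample, and the lowest CPM of any mitochondrial transcript, 16.7, lay far above the 0.298 CPM that 3 reads gave in the shallowest sample. RNA of the signal recognition particle (7SL RNA, from Rn7s1 and Rn7s2) took 9.92% to 42.0% of the CPM and exceeded 25% in 5 HDM, 4 HDM + Dex and 1 naïve adult sample, and in none of the naïve aged samples. Such a share lowers the CPM of every other gene, so that each comparison was also made after rescaling by median-of-ratios factors, which set the typical gene equal between samples. By Xist and Ddx3y, 5 of 5 naïve adult, 2 of 5 naïve aged, 2 of 7 HDM and 4 of 7 HDM + Dex mice were female. For 4 samples the proportions among mitochondrial transcripts were unusual, namely naïve adult replicate 1, naïve aged replicates 1 and 3, and HDM + Dex replicate 4. In the last 3, the ratio of mt-Atp8 to mt-Atp6 was 0.394 to 0.412, and in all other samples it was 0.143 to 0.306. Naïve adult replicate 1 had the highest 7SL share and the highest ratio of rRNA to mRNA. Each comparison was repeated without these 4 samples, which were chosen after their values were seen. Other samples lay far from their groups in single transcripts, among them HDM replicate 4 and naïve adult replicate 5.

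The genes are packed with almost no space between them, and some share bases. On chromosome M (GRCm38) mt-Atp8 (7766 to 7969) and mt-Atp6 (7927 to 8607), which encode subunits of ATP synthase, share 43 bases of the same strand. The end of mt-Atp8 and the start of mt-Atp6 are shown with the shared bases in capitals, since a read there belongs to both. The sequences are those of the GENCODE transcripts, written 5′ to 3′.
mt-Atp8: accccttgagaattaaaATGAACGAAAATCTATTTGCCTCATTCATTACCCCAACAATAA
mt-Atp6: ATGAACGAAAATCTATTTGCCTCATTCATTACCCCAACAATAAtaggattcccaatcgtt

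mt-Nd5 (11742 to 13565) and mt-Nd6 (13552 to 14070) meet end to end from opposite strands and overlap by 14 bases. Of the 13 mRNAs, mt-Nd6 alone is read from the minus strand, and the other 12 are read from the plus strand. Their last 30 bases are shown with the overlap in capitals, each as its own transcript reads, so that the capitals of one are the reverse complement of the other.
mt-Nd5: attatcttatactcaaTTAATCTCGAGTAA
mt-Nd6: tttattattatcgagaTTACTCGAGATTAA

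mt-Co3, mt-Nd4 and mt-Cytb are annotated with a length that leaves 1 base over after whole codons. They end in a T, in capitals, which becomes a stop codon only when the mRNA is polyadenylated. By the study's methods, the libraries were made with the TruSeq Stranded mRNA kit.
mt-Co3: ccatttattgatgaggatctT
mt-Nd4: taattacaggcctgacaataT
mt-Cytb: aaatactaaaattatatccaT

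Several of the mRNAs have near-identical copies in the nuclear genome. Pieces of mitochondrial DNA that were inserted into nuclear chromosomes are annotated as pseudogenes, and 7 of them lie in a row on the minus strand of chromosome 1 (GRCm38), from Gm28439 (24611535 to 24612410) to Gm29216 (24615706 to 24616197), in the same order as the mitochondrial genes they resemble. Compared without gaps over their whole length, Gm10925 (678 bases, against mt-Atp6), Gm28661 (681 bases, mt-Co2), Gm28437 (783 bases, mt-Co3), Gm28439 (876 bases, mt-Nd4) and Gm10222 (294 bases, mt-Nd4l) had 0 differing bases. Gm28438 (345 bases, mt-Nd3) had 1. The copy of the end of mt-Co1, Gm29216, had 6 differing bases of 492, all near its start. Those starts are shown with the differing bases in capitals, followed by the first 60 bases of mt-Co3 and of Gm28437, which are the same.
mt-Co1: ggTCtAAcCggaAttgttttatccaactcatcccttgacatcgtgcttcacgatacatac
Gm29216: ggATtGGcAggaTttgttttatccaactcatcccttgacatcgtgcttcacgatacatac
mt-Co3: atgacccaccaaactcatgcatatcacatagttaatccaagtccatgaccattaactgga
Gm28437: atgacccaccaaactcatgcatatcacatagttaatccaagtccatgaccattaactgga

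Reads of these genes are 50 bases long from either end of a fragment, so the share of 50-base windows that also occur in an annotated nuclear transcript was counted. It was 100% for mt-Co2, 99.9% for mt-Co3, 99.5% for mt-Atp6, 98.8% for mt-Nd4l and 293 of 299 windows for mt-Nd3. It was 62.2% for mt-Nd4 and 51.1% for mt-Co1, 8.19% for mt-Nd2, 7.61% for mt-Nd5 and 1.04% for mt-Rnr2. No window of mt-Rnr1, mt-Nd1, mt-Atp8, mt-Nd6 or mt-Cytb was shared. These last 5 genes, with mt-Nd2, mt-Nd5 and mt-Rnr2, are the ones whose reads were least open to division with nuclear rows, although mt-Atp8 shares its end with mt-Atp6.

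The table lists large values on the copies. Of the CPM of mt-Co3 and Gm28437 together, 88.2% ± 2.68 (SD, n = 24) stood on the nuclear row, and of mt-Co2 with Gm28661 and Gm13341, 83.3% ± 5.09 did. The share was 76.4% ± 7.63 for mt-Nd4l, 60.9% ± 8.30 for mt-Atp6 and 30.8% ± 13.0 for mt-Nd3. With identical sequences, the reads of a gene and its copy cannot be told apart, and the level of a mt- row alone is not that of its mRNA. Per kilobase, the mean CPM of the 5 mRNAs with over 90% of windows shared ranged from 71.7 (mt-Co3) to 687 (mt-Atp6), and that of the 6 mRNAs with under 10% shared ranged from 379 (mt-Nd2) to 905 (mt-Cytb). With the copies added, mt-Co3 rose from 71.7 to 619 CPM per kilobase, mt-Co2 from 116 to 746 and mt-Nd4l from 142 to 583, and the range over these 5 mRNAs became 190 to 1751.

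**Figure D1:**
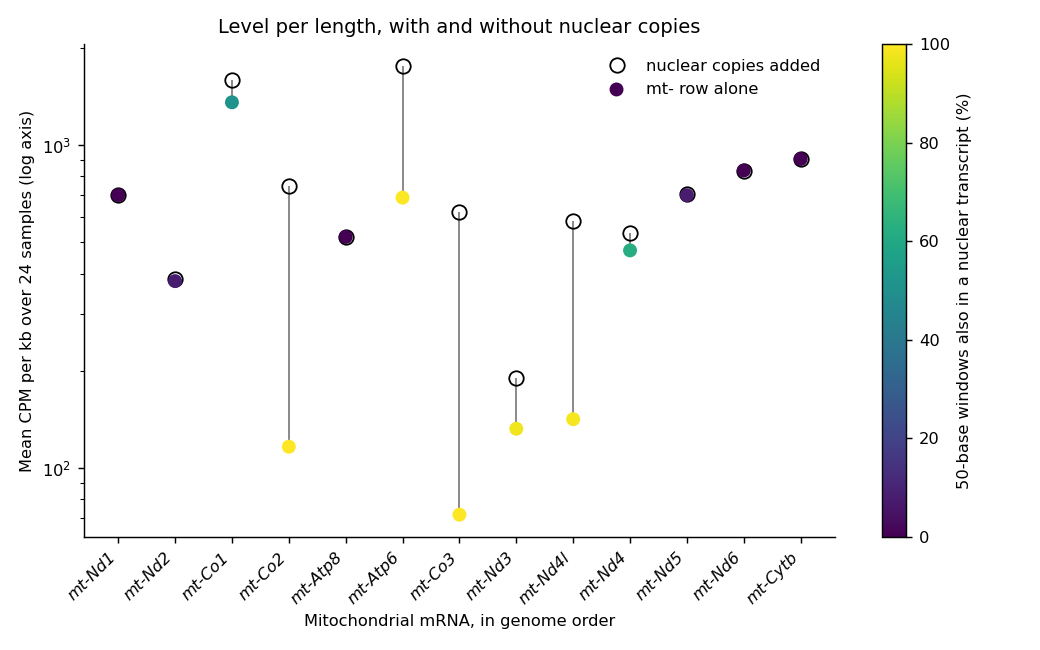
Mean CPM per kilobase of the 13 mRNAs over all 24 samples on a log axis, in genome order, with filled points for the mt- row alone, colored by the share of its 50-base windows that occur in a nuclear transcript, and open points with the nuclear copies added. The points of mt-Co2, mt-Co3 and mt-Nd4l move up to the range of the mRNAs without copies, and those of mt-Nd1, mt-Atp8, mt-Nd6 and mt-Cytb stay in place.

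The rRNAs dominated the mitochondrial signal. By the study's methods the libraries were made with an mRNA kit. In these libraries 7SL RNA took 9.92% to 42.0% of the CPM and nuclear rRNA 0.729% to 4.05%. How far the libraries were selected for polyadenylated RNA was not tested. Per kilobase, the mean CPM was 23809 for mt-Rnr1, the RNA of the small ribosomal subunit, and 25658 for mt-Rnr2, that of the large subunit. Among the mRNA rows the highest mean was 1356 for mt-Co1, the catalytic subunit of cytochrome c oxidase, but with the copies added mt-Atp6 (1751) exceeded mt-Co1 (1590). The rRNAs made up 85.6% to 97.7% of the mitochondrial CPM of a sample. All 15 transcripts together took 4.26% to 11.7% of the CPM.

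**Figure D2:**
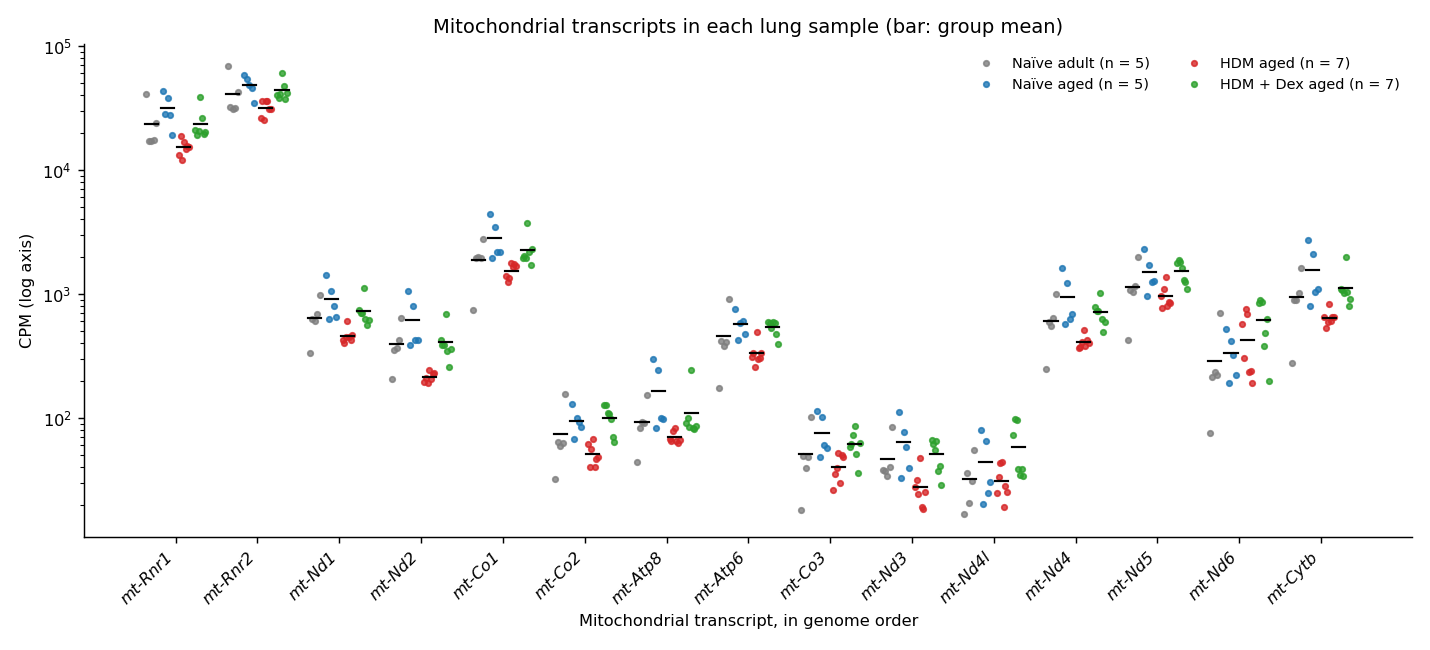
CPM of each mitochondrial transcript on a log axis, in genome order, with 1 point per sample, 4 groups side by side and a bar at each group mean. The rRNAs lie above every mRNA in each sample, and for most mRNAs the HDM samples form the lowest of the aged groups.

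Summed over the 13 mRNAs, the naïve aged samples had 15561, 6163, 11994, 7558 and 7325 CPM in the order of their replicate numbers. The 7 HDM samples ranged from 4378 to 6796 with a median of 5074. The 7 HDM + Dex samples ranged from 6443 to 11695 with a median of 8384. The HDM samples thus lay below the naïve aged samples except for replicate 4, which exceeded a single naïve aged sample, and HDM + Dex lay above HDM in 47 of 49 pairs of samples. Naïve adult samples had 2638, 6396, 6289, 6806 and 11132 CPM and spanned the whole range of the aged groups but its top. The summed rRNAs ran from 53820 to 101176 CPM in naïve aged, from 37245 to 54515 in HDM and from 56614 to 98865 in HDM + Dex samples, and the last 2 groups did not overlap. These sums are dominated by a few genes and were not tested.

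**Figure D3:**
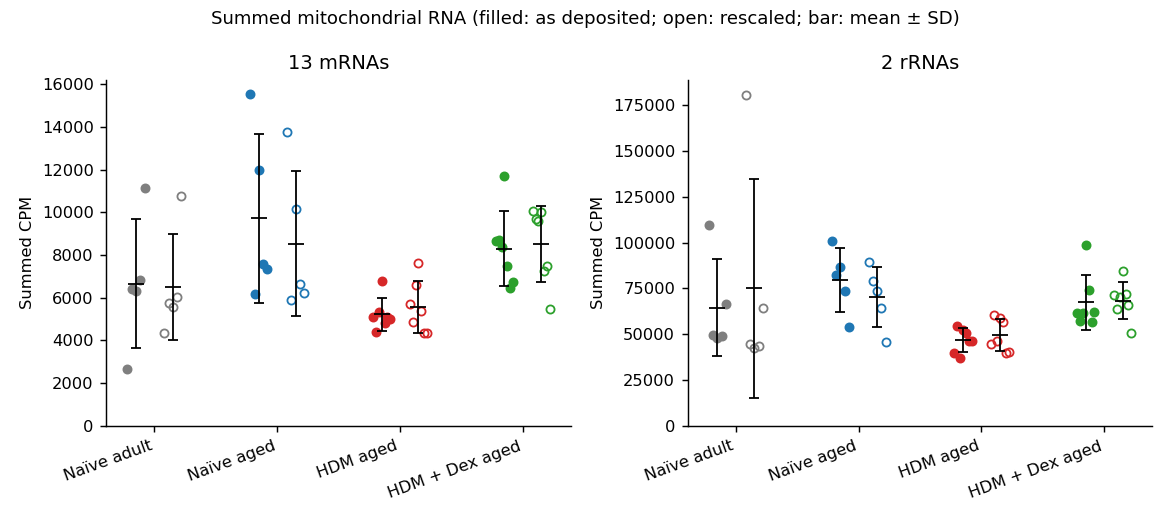
Summed CPM of the 13 mRNAs (left) and the 2 rRNAs (right), with 1 point per sample, filled as deposited and open after median-of-ratios rescaling, and bars for mean ± SD. As deposited, the 7 HDM samples lie between 4378 and 6796 CPM for mRNAs, below most of the other aged samples, and naïve adult replicate 1 has the lowest mRNA sum (2638) with the highest rRNA sum (109661).

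The first comparison asked what HDM challenge did in the aged lung. Compared with saline, 12 of the 15 transcripts fell at an adjusted p under 0.05, and none rose. Of all genes tested, 21.2% fell and 4.04% rose by the same test. The 12 comprised mt-Rnr1 and 11 of the 13 mRNAs, from all 4 complexes with mitochondrially encoded subunits. The exceptions were mt-Rnr2, mt-Nd4l and mt-Nd6. The median log2 fold change of the members was −0.87, where that of all genes was −0.23. After rescaling, which brought the median of all genes to −0.01, the median of the members was −0.62 and 6 passed, all lower, against 11.6% of all genes lower. These 6 were mt-Nd1, mt-Nd2, mt-Nd4, mt-Co1, mt-Co3 and mt-Cytb. Without those 4 samples, 4 of 15 passed, all lower, where 6.46% of all genes were lower, and the median was −0.59.

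mt-Nd2, a membrane subunit of complex I, NADH dehydrogenase, had the largest difference. It had 1059, 387, 803, 425 and 428 CPM in the naïve aged samples, and 193 to 243 CPM with a median of 208 in the HDM samples. The groups did not overlap, as was the case for 7 of the 15 members and for 7.69% of all genes in the lower direction. The log2 fold change was −1.41 (SE 0.23, adjusted p = 0.000509, limma), or 0.377 of the saline level. It was −1.15 after rescaling (adjusted p = 0.00123), and −0.94 without the 4 samples (adjusted p = 0.00391).

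The other subunits of complex I on the plus strand followed with smaller differences. mt-Nd4, a further membrane subunit, had 1621, 573, 1215, 631 and 684 CPM in naïve aged samples and 370 to 515 CPM, median 405, in HDM samples, again without overlap. Its log2 fold change was −1.08 (SE 0.22, adjusted p = 0.00168, limma). mt-Nd1, the subunit at the foot of the hydrophilic arm, shares no window with a nuclear copy and had 1427, 633, 1057, 794 and 656 CPM against 404 to 605, median 452. All 35 pairs of samples were lower after HDM, and the log2 fold change was −0.93 (SE 0.19, adjusted p = 0.00186). mt-Nd3 fell by 1.10 (adjusted p = 0.00641) and mt-Nd5 by 0.61 (adjusted p = 0.0326) on the log2 scale.

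mt-Cytb, the only mitochondrially encoded subunit of complex III, had 2727, 797, 2107, 1028 and 1087 CPM in naïve aged samples and 533 to 830 CPM, median 648, in HDM samples. A single pair of 35 ran the other way, and the log2 fold change was −1.11 (SE 0.25, adjusted p = 0.0034, limma). The 3 subunits of cytochrome c oxidase, mt-Co1, mt-Co2 and mt-Co3, fell by 0.82, 0.86 and 0.87 on the log2 scale with adjusted p-values of 0.00782, 0.00296 and 0.00888. The ATP synthase subunits fell by 1.02 (mt-Atp8, adjusted p = 0.0126) and 0.76 (mt-Atp6, adjusted p = 0.00219). Without the 4 samples, mt-Nd1, mt-Nd2, mt-Nd4 and mt-Cytb still passed. The subunits of cytochrome c oxidase and ATP synthase did not, nor did mt-Nd3, mt-Nd5 and mt-Rnr1. For mt-Atp8 and mt-Atp6 the adjusted p was 0.0503 and 0.0519 (limma), just above the threshold.

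The rRNAs come from the start of the plus-strand transcript. mt-Rnr1 had 43328, 28124, 38245, 27787 and 19072 CPM in naïve aged samples and 12093 to 18771 CPM, median 15195, in HDM samples. No HDM sample reached a saline sample, and the log2 fold change was −0.996 (SE 0.26, adjusted p = 0.00853, limma). For mt-Rnr2 it was −0.60 (SE 0.26, adjusted p = 0.0918). The ratio of mt-Rnr2 to mt-Rnr1 was 1.27 to 1.94 in naïve aged and 1.90 to 2.43 in HDM samples. After rescaling, neither rRNA passed, with adjusted p-values of 0.066 and 0.478.

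When the reads of the nuclear copies were added to each mRNA before the fit, 13 of 15 passed, all lower. Of all 17744 genes tested, 3766 were lower in that fit. With the copies mt-Nd4l joined the called members, with a log2 fold change of −0.55 (adjusted p = 0.00793) in place of −0.35 (adjusted p = 0.452) for its row alone. The rows of the copies fell as well in part. Gm10222 fell by 0.58 (adjusted p = 0.00131) and Gm28437 by 0.96 (adjusted p = 0.0106) on the log2 scale, and for Gm10925 the value was −0.46 (adjusted p = 0.0658).

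The makeup of the tissue moved with this comparison. All 12 heart muscle markers fell after HDM (median log2 fold change −2.32), and their summed CPM was 660 to 1256 in naïve aged, 38.1 to 524 in HDM and 80.3 to 1439 in HDM + Dex samples. All 7 ciliated cell markers and all 3 club cell markers fell too, with median log2 fold changes of −1.499 and −2.90, as did 5 of 7 markers of capillary endothelium and 3 of 6 of type 1 alveolar cells. Of the 8 type 2 alveolar markers, 1 rose and none fell, and their summed CPM was 6834 to 14712 in naïve aged and 5029 to 9089 in HDM samples. Of the 6 alveolar macrophage markers, 1 rose and 0 fell. Their summed CPM was 246 to 354 in naïve aged and 435 to 3114.5 in HDM samples. White fat (3 of 3), skeletal muscle (3 of 7) and neutrophil markers (2 of 5) also fell, and 1 of 3 eosinophil markers rose. For plasma, B, T and red cells 0 markers passed. With the heart muscle score as a covariate, 0 of 15 members (7 at an unadjusted p under 0.05, limma) and 7 of 17744 genes passed, and the median log2 fold change of the members was −0.63. With the 7SL share, 6 members passed, all lower, where 2.25% of all genes were lower, and the median was −0.73. With sex and the 7SL share together, 0 members and 33 genes passed (limma), and the median was −0.64. The part of these cell types in the fall of the mitochondrial transcripts was not tested, and in whole lung fewer cells of a type and less RNA per cell cannot be told apart. The 2 HDM samples with a 7SL share below 25% had mRNA sums of 5017 and 5074 CPM, below every naïve aged sample, and after rescaling 4335 and 4346 against 5889 to 13745. The other 5 HDM samples ran from 4869 to 7605 after rescaling and overlapped the naïve aged samples. By Xist and Ddx3y these 5 were male and the 2 with the lower share female, so share and sex cannot be told apart here.

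**Figure D4:**
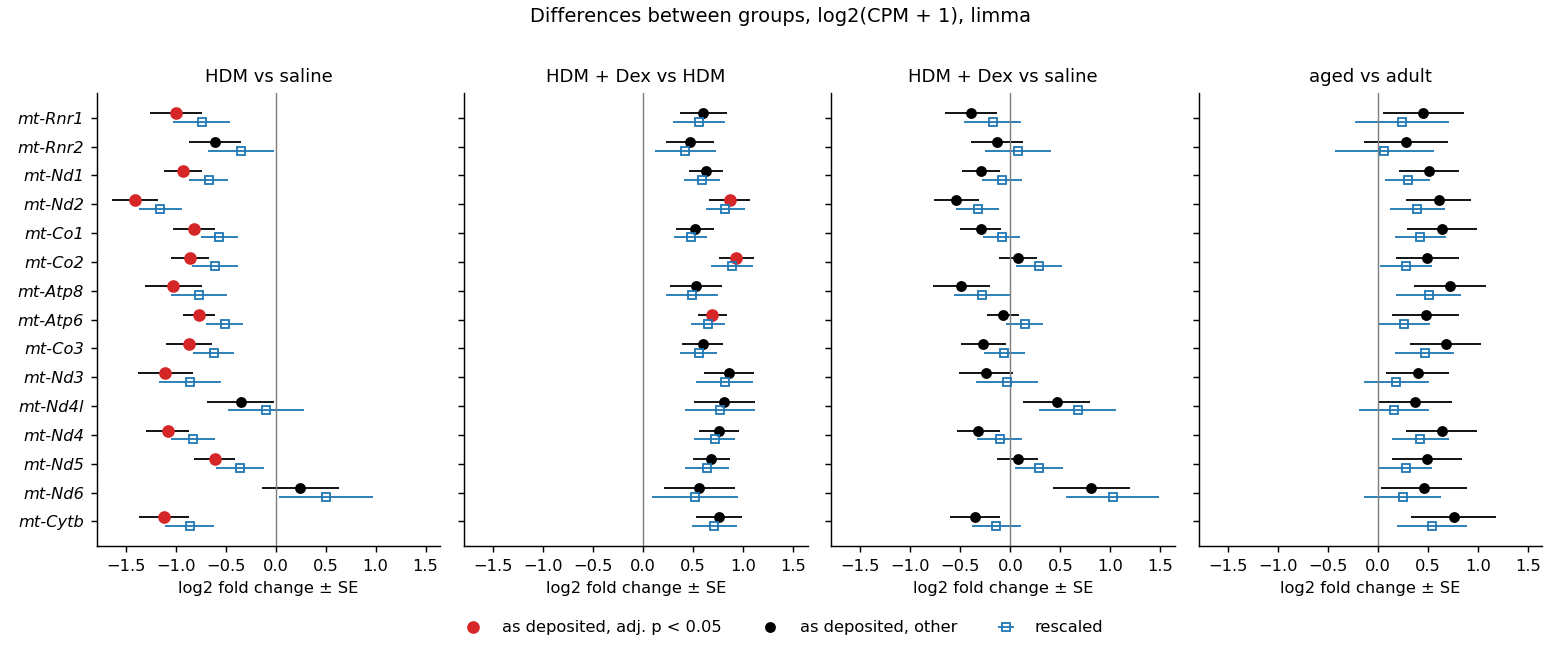
Log2 fold changes of the 15 transcripts in 4 comparisons, in genome order, with bars for the SE from limma, circles for CPM as deposited (red where the adjusted p was under 0.05) and blue squares after median-of-ratios rescaling. In HDM vs. saline 12 circles are red and left of 0, in HDM + Dex vs. HDM all 15 lie right of 0 with 3 red, and in the other 2 comparisons none is red.

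mt-Nd6, a subunit of complex I, departed from the mRNAs of the other strand. It had 519, 191, 420, 323 and 221 CPM in naïve aged samples, and 576, 302, 750, 690, 233, 240 and 191 CPM in HDM samples. In HDM, 3 samples thus lay above the saline range and the other 4 within it, and the log2 fold change was 0.25 (SE 0.39, adjusted p = 0.659, limma). The share of mt-Nd6 in the mRNA sum was 3.02% to 4.27% in naïve aged, 3.80% to 14.1% in HDM and 2.94% to 10.2% in HDM + Dex samples. To compare it with its neighbors directly, the CPM of every gene were divided by the summed plus-strand mRNAs of the sample before the fit. On that scale mt-Nd6 rose by 1.14 (SE 0.35, adjusted p = 0.0134), mt-Nd2 fell by 0.52 (adjusted p = 0.0232), and none of the other 13 members passed. The divisor is the sum of 12 members, whose values on that scale lie around 0 by construction, so their not passing is no result. Because the divisor itself fell, 7567 of the 17744 genes rose on that scale and 255 fell, so that the rise of mt-Nd6 against the divisor is one that many genes share.

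The ratio of mt-Nd6 to mt-Nd5, the gene beside it, differed between samples with a high and a low 7SL share. In the 5 HDM samples with a 7SL share above 25% it was 0.293 to 0.680, and in the 2 others 0.227 and 0.277. In HDM + Dex samples it was 0.470 to 0.504 in the 4 with a share above 25% and 0.182 to 0.378 in the other 3. Naïve aged samples, all below 25%, had 0.174 to 0.261. Naïve adult replicate 1, with the highest 7SL share of all (42.0%), had 0.177, so a high share and a high ratio did not always go together. By Xist and Ddx3y, the 5 HDM samples above 25% were male and the 2 others female. Share and sex thus cannot be told apart among the HDM samples. In HDM + Dex, the 3 samples below 25% were female, and of the 4 above, replicate 6 alone was female. The library kit keeps the strand by the study's methods, but whether the counting used it is not given in the sources used here. If it did not, reads of mt-Nd6 and antisense reads of the plus-strand precursor cannot be told apart. With the 7SL share as a covariate the log2 fold change of mt-Nd6 in HDM vs. saline turned to −0.70.

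**Figure D5:**
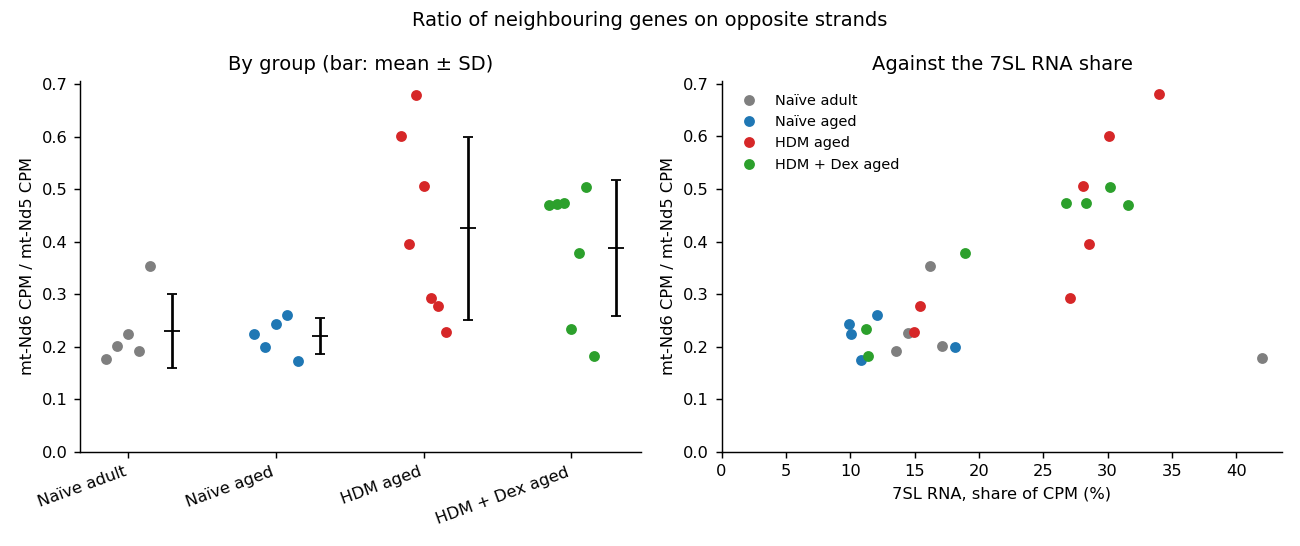
Ratio of the CPM of mt-Nd6 to that of mt-Nd5 in each sample, by group with bars for mean ± SD (left), and against the share of CPM taken by 7SL RNA (right). The ratio stays between 0.174 and 0.261 in naïve aged samples and reaches 0.680 in HDM samples, and the highest values are at 7SL shares above 25%.

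The second comparison asked what Dex changed in HDM-challenged aged mice. All 15 transcripts had a positive log2 fold change, from 0.47 to 0.93, and 3 rose at an adjusted p under 0.05, namely mt-Co2, mt-Nd2 and mt-Atp6. Of all genes tested, 0.75% rose by this test, and the median log2 fold change was 0.03 over all genes and 0.68 over the members. After rescaling the same 3 passed, where 1.98% of all genes rose. This comparison shares the HDM samples with the one before, so that opposite signs of the 2 are favored by their construction.

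mt-Nd2 had 193 to 243 CPM, median 208, in HDM samples and 256 to 694 CPM, median 386, in HDM + Dex samples, without overlap. Its log2 fold change was 0.87 (SE 0.21, adjusted p = 0.0454, limma), or 1.82 times the HDM level. mt-Rnr1 and mt-Rnr2 did not overlap either, at 12093 to 18771 against 19168 to 38697 CPM and at 25152 to 35904 against 37000 to 60169 CPM, although their adjusted p-values were 0.234 and 0.411. Groups without overlap in this direction made up 0.147% of all genes.

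mt-Co2 had 40.0 to 67.7 CPM, median 48.0, in HDM samples and 63.8 to 128 CPM, median 107, in HDM + Dex samples, and a single pair of 49 overlapped. The log2 fold change was 0.93 (SE 0.17, adjusted p = 0.027, limma). mt-Atp6 had 259 to 495 CPM, median 311, against 397 to 594 CPM, median 582. Its log2 fold change was 0.69 (SE 0.15, adjusted p = 0.0292). Both genes have nuclear copies without a differing base, and with the copies added neither passed, at 0.64 (adjusted p = 0.199) for mt-Co2 and 0.40 (adjusted p = 0.1) for mt-Atp6. The share of reads on the copies was 84.8% ± 3.71 in HDM (n = 7) and 80.4% ± 6.50 in HDM + Dex samples (n = 7) for mt-Co2, and 63.7% ± 8.78 and 56.0% ± 6.88 for mt-Atp6. With the copies added, mt-Nd4l rose by 0.63 (adjusted p = 0.0295) and mt-Nd2 by 0.86 (adjusted p = 0.0457).

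These calls depended on single samples and on the samples used to estimate the spread. With only the HDM and HDM + Dex samples in the fit, 0 members and 1 of all genes passed, although 13 members had an unadjusted p under 0.05. None passed without HDM replicate 1, 3 or 5, or without HDM + Dex replicate 1, 3, 4 or 5, and 5 passed without HDM + Dex replicate 6. The calls of all genes moved as much. Of 17744 genes, 171 passed in the main fit, 2 to 8 in those single-sample fits without a called member, and 434 without HDM + Dex replicate 6. Without those 4 samples, mt-Nd2 alone of the members passed, with a log2 fold change of 0.73 (adjusted p = 0.032, limma), and 4 of all genes passed. Beside these values, 5 of 7 ciliated cell markers rose with Dex (median log2 fold change 1.19), and 0 of 12 heart muscle markers passed (median 1.21). Their part in the rise was not tested.

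HDM + Dex did not differ from saline by the test in any of the 15 transcripts (limma), and 2 had an unadjusted p under 0.05. Of all genes, 1.89% passed in either direction. The log2 fold changes ranged from −0.54 (mt-Nd2, adjusted p = 0.184) to 0.81 (mt-Nd6, SE 0.39, adjusted p = 0.232), and 4 of 15 were positive. Their median was −0.27, where that of all genes was −0.19. After rescaling the medians were −0.06 and −0.01, and 6 of 15 were positive. mt-Nd6 had 841, 888, 856, 382, 486, 634 and 198 CPM in the HDM + Dex samples in the order of their numbers, and exceeded saline in 28 of 35 pairs. For mt-Rnr1 the value was −0.39 (SE 0.26, adjusted p = 0.361). The SE of the 15 estimates ran from 0.16 to 0.39.

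Between naïve aged and naïve adult lungs, the log2 fold changes of the 15 transcripts were all positive, from 0.28 (mt-Rnr2) to 0.76 (mt-Cytb, SE 0.42, adjusted p = 0.504). None passed (limma), at an unadjusted p under 0.05 either, where 0.654% of all genes passed in either direction. The median was 0.50 over the members and 0.19 over all genes, and after rescaling 0.28 and 0.005. The mRNA sums of both groups overlapped, at 2638 to 11132 and 6163 to 15561 CPM. The size of these values rested on single samples. Without naïve adult replicate 5, whose mRNA sum was highest of the adult group, the members' median was 0.80 in place of 0.50. In that fit the median of all genes was 0.21. There 12 of 15 members had an unadjusted p under 0.05 (limma), but 0 passed the adjusted threshold, where 103 of 17744 genes did. The members move together within samples, so the 12 are not separate observations. Naïve adult replicate 1 had the lowest mRNA sum of its group, and naïve aged replicates 1 and 3 had the highest of theirs. Leaving them out thus lowers the mRNA differences by construction. Without naïve adult replicate 1 and naïve aged replicates 1 and 3, only 4 of 15 values were positive, and the median was −0.07. All 5 adult mice were female and 3 of the 5 aged mice were male, so that age and sex cannot be fully told apart in this comparison.

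The nuclear genes that copy, transcribe, process and translate mitochondrial DNA were examined as 115 genes in 7 groups. After HDM, 2 rose and 12 fell, with a median log2 fold change of −0.22, close to the −0.23 of all genes. These were 1.74% and 10.4% of the 115, where 4.04% of all genes rose and 21.2% fell. After rescaling 9 rose and 3 fell (7.83% and 2.61%, against 10.9% and 11.6% of all genes), so the balance of higher and lower calls turned with the scaling. The 14 calls became 7 without naïve aged replicate 3, 8 without naïve aged replicate 1, 9 without naïve aged replicate 4 or HDM replicate 3, and 24 without HDM replicate 6. Without those 4 samples 2 genes passed. Of all 17744 genes, 4482 passed in the main fit and 1394 without the 4 samples. In the single-sample fits, all-gene counts were 2954 and 3003 without naïve aged replicates 3 and 1. They were 3838 and 3278 without naïve aged replicate 4 and HDM replicate 3, and 5338 without HDM replicate 6. In each of the other 3 comparisons 0 of the 115 passed (limma), with an unadjusted p under 0.05 for 9 in HDM + Dex vs. HDM, 17 in HDM + Dex vs. saline and 9 in aged vs. adult. The share of all genes at that unadjusted cut was not counted, so these numbers are no result about the machinery.

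Among the 9 regulators of mitochondrial biogenesis, Ppargc1a, which encodes the coactivator PGC-1α, fell by 1.21 on the log2 scale (SE 0.24, adjusted p = 0.00163, limma). Its relative Ppargc1b rose by 0.76 (SE 0.16, adjusted p = 0.00186), and Esrra, the nuclear receptor ERRα, rose by 0.65 (adjusted p = 0.00907). These 3 calls held after rescaling, with adjusted p-values of 0.00516, 0.00073 and 0.0017. Gabpa, a subunit of the transcription factor NRF-2, fell by 0.42 (adjusted p = 0.0231) but not after rescaling (adjusted p = 0.189).

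Of the 10 genes of mitochondrial transcription, Mterf4, a termination factor family member, fell by 0.52 (adjusted p = 0.0322, limma) and 0 rose. The polymerase gene Polrmt had a log2 fold change of −0.29 (SE 0.22, adjusted p = 0.325), and Tfam, which packages and transcribes the genome, had −0.45 (SE 0.18, adjusted p = 0.0646). Tfb2m, which opens the promoter for the polymerase, had −0.32 (adjusted p = 0.224). Of the 23 genes of RNA processing and turnover, Mtpap, the mitochondrial poly(A) polymerase, fell by 0.56 (adjusted p = 0.0114), and Lrpprc, which stabilizes the mRNAs, had −0.18 (adjusted p = 0.347). Of the 15 genes of replication and maintenance, Top1mt, the mitochondrial topoisomerase, and Rrm2b, a ribonucleotide reductase subunit, fell by 0.55 and 0.53 with adjusted p-values of 0.039 and 0.0245.

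Among the genes of translation, 3 of 22 for tRNA charging fell, among them Yars2 (−0.61) and Nars2 (−0.49), along with Mettl15 and Mettl8 of 22 for rRNA and tRNA modification and Guf1 of 14 translation factors. Mettl15, a methyltransferase of the rRNA of the small subunit, had the largest of these differences, −0.71 (SE 0.22, adjusted p = 0.0249, limma), and passed after rescaling (adjusted p = 0.0418). With Dex, Ppargc1a had a log2 fold change of 0.69 against HDM (SE 0.22, adjusted p = 0.133). Polrmt, Tfam, Tfb2m and Lrpprc had values from 0.05 to 0.16 there. Against saline, HDM + Dex gave −0.52 for Ppargc1a (adjusted p = 0.223) and −0.31 to −0.02 for the other 4 genes. Between aged and adult lungs the values were 0.31 for Ppargc1a (adjusted p = 0.547), 0.51 for Tfam (adjusted p = 0.423), and 0.10 to 0.26 for Polrmt, Tfb2m and Lrpprc.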

How the data were processed

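Lung RNA of 24 mice had been sequenced with paired reads of 50 bases, from libraries made with the TruSeq Stranded mRNA kit by the study's methods. The deposited table holds CPM per gene, to which the authors had added 0.0001, which was subtracted here. The methods name STAR, Picard and limma, and the submitters' processing notes name mm9, FastQC, STAR and DESeq2. Gene starts nevertheless equal those of GENCODE M21 (GRCm38) for 23104 of 23276 symbols found, so GRCm38 coordinates are given. Strand handling, and that of reads with several matches, is not given in the sources used here. Samples were grouped by their labels. CPM are not counts, so log2(CPM + 1) was fitted with limma 3.58.1 (R 4.3.3) with a mean-variance trend in 17744 genes, those whose mean reached 1 CPM. The 19 aged samples and the 10 naïve samples made 2 fits, and p-values were adjusted over all tested genes by Benjamini-Hochberg at 0.05. Unadjusted p-values under 0.05 were counted for the members and machinery genes only. Fold changes on this scale understate those of low genes. All 15 members passed the filter. Estimated depth, from the CPM that 1 read gives, was 10.1 to 33.1 M reads; 80.8% to 85.6% of low values were whole multiples within a tolerance of 0.05, so CPM were not turned back into reads. Counting error only is covered by the 3-read floor. Tables were made with Python 3.11.15. On simulated data for HDM vs. saline, 192 of 200 changed genes among 17744 were recovered and 10 others were called. The noise was drawn separately for each gene, and the raised genes came out at 1.47 (log2) on average. Smaller changes, and shifts that genes share within a sample, were thus not covered. The alternatives were other scalings, pseudocounts, filters, covariates and sample sets. Adding the copies to each mRNA, dividing by the plus-strand mRNAs, leaving out 4 samples together, and sex and the 7SL share as joint covariates were chosen after seeing the data. The genes named are all members, their nuclear copies, from each list of machinery genes up to 2 with the largest called change in each direction, and Polrmt, Tfam, Tfb2m, Lrpprc and Ppargc1a. The members and gene lists were chosen with earlier results of these data known. Samples were typed by sex from Xist and Ddx3y.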

Additional observations from a re-analysis of the deposited data

Results flagged for a closer look

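In 20 of 84 groups of samples, looked at over 21 measures, 1 sample lay far from the others of its group by Dixon's criterion, where chance gives about 4.2. Many of these measures move together, so the 20 are not separate observations, and no cause was tested.

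HDM + Dex replicate 4 was far above its group for mt-Rnr1 (38697 CPM), mt-Nd1 (1114 CPM), mt-Nd2 (694 CPM), mt-Co1 (3756 CPM), mt-Atp8 (242 CPM), mt-Cytb (1970 CPM) and the rRNA sum (98865 CPM), and in its ratio of mt-Atp8 to mt-Atp6 (0.408). It also had the highest Myh6, a heart muscle gene, of all samples (897 CPM). HDM replicate 4 was far above its group for mt-Nd1 (605 CPM), mt-Atp6 (495 CPM), mt-Nd4 (515 CPM), mt-Cytb (830 CPM) and the mRNA sum (6796 CPM). HDM replicate 3, the shallowest sample, had a ratio of mt-Atp8 to mt-Atp6 of 0.306.

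Naïve adult replicate 5 was far above its group for mt-Co2 (155 CPM), mt-Nd3 (84.2 CPM), mt-Nd6 (701 CPM) and the ratio of mt-Nd6 to mt-Nd5 (0.353). Naïve adult replicate 1 had mt-Rnr1 at 41272 CPM and a ratio of mt-Cytb to mt-Nd5 of 0.655, below its group.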

How the results depend on the processing

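The direction of HDM vs. saline held under every setting for mt-Nd2, mt-Nd1, mt-Nd3, mt-Nd4, mt-Atp8, mt-Cytb and mt-Rnr1. For mt-Atp6, mt-Co1, mt-Co2, mt-Co3, mt-Nd5 and mt-Rnr2 it changed only on division by the plus-strand mRNAs. The number of members called did not hold. Of 435 member values under alternatives 359 kept direction and call, 61 lost the call, 4 gained one and 11 changed sign. In HDM + Dex vs. HDM these were 406, 42, 10 and 7 of 465, in HDM + Dex vs. saline 407, 0, 1 and 27 of 435, and in aged vs. adult 365, 0, 0 and 25 of 390. All 7 sign changes in HDM + Dex vs. HDM, and most in HDM vs. saline, came from dividing by the plus-strand mRNAs. That divisor is the sum of 12 members and sets their values around 0 by construction, so sign changes there do not bear on direction. In HDM vs. saline 6 members passed after rescaling, 6 with the 7SL share as covariate, 4 without the 4 samples, 2 divided by the plus-strand mRNAs, and 0 with the heart muscle score or with sex and the 7SL share. Of all 17744 genes, 3986, 1571, 1394, 7822, 7 and 33 passed, in the same order. Leaving out 1 sample gave 10 to 12 members and 7 to 24 machinery genes, named beside that comparison, and 2954 to 5338 of all genes. Of the machinery genes 9 passed with all 24 samples in one fit, where 3461 of all genes did. Another 5 passed with the 7SL share, 49 divided by the plus-strand mRNAs, 2 without the 4 samples, and 0 with the heart muscle score or with sex and the 7SL share, beside the counts of all genes given above. In HDM + Dex vs. HDM 0 members passed with only the groups compared, 5 with the 7SL share, 7 with sex and the 7SL share, 0 with the heart muscle score, 0 divided by the plus-strand mRNAs and 1 without the 4 samples, and 0 to 5 with 1 sample left out. Of the machinery genes 1 passed with the 7SL share, 1 with sex and the 7SL share and 63 divided by the plus-strand mRNAs. In these 3 fits 563, 823 and 9592 of all 17744 genes passed. With only the groups compared, the heart muscle score, or without the 4 samples, 1, 1 and 4 of all genes passed, and 2 to 544 with 1 sample left out. In HDM + Dex vs. saline 5 machinery genes passed with sex as covariate, and 0 to 1 with 1 sample left out, 1 without HDM + Dex replicate 4 or 7. Of all genes 1929 passed with sex as covariate, 688 without HDM + Dex replicate 4 and 772 without HDM + Dex replicate 7. The rRNA sum differed by −0.47 (log2) between HDM and saline with totals without 7SL RNA and nuclear rRNA. The cause of these shifts was not tested. Replicate numbers did not pair the samples: the deviations of 32 same-numbered pairs correlated at −0.238 to 0.407, and 4 exceeded 0.1. With the replicate block, 12 members passed in HDM vs. saline, 1 in HDM + Dex vs. HDM, 1 in HDM + Dex vs. saline and 0 in aged vs. adult, and 25, 0, 1 and 0 machinery genes. Of all genes 5644, 8, 898 and 168 passed there, in the same order. With the 7SL share as covariate, the sign in HDM vs. saline changed for mt-Nd6 −0.70. With the heart muscle score as covariate, the sign in HDM vs. saline changed for mt-Nd6 −0.0102. Divided by the plus-strand mRNAs, the log2 fold changes that changed sign in HDM vs. saline were mt-Atp6 0.12, mt-Co1 0.074, mt-Co2 0.019, mt-Co3 0.0079, mt-Nd4l 0.52, mt-Nd5 0.28 and mt-Rnr2 0.29. Without the 4 samples, the sign in HDM vs. saline changed for mt-Nd4l 0.25. With sex and the 7SL share as covariates, the sign in HDM vs. saline changed for mt-Nd6 −0.67. Divided by the plus-strand mRNAs, the log2 fold changes that changed sign in HDM + Dex vs. HDM were mt-Atp8 −0.13, mt-Co1 −0.15, mt-Co3 −0.053, mt-Nd1 −0.034, mt-Nd6 −0.10, mt-Rnr1 −0.059 and mt-Rnr2 −0.20. After rescaling, the log2 fold changes that changed sign in HDM + Dex vs. saline were mt-Atp6 0.14 and mt-Rnr2 0.075. With totals without 7SL RNA and nuclear rRNA, the log2 fold changes that changed sign in HDM + Dex vs. saline were mt-Atp6 0.14 and mt-Rnr2 0.074. With the 7SL share as covariate, the log2 fold changes that changed sign in HDM + Dex vs. saline were mt-Co1 0.024, mt-Co2 −0.026, mt-Co3 0.038 and mt-Nd5 −0.025. With the heart muscle score as covariate, the log2 fold changes that changed sign in HDM + Dex vs. saline were mt-Atp6 0.025 and mt-Rnr2 0.047. With the copies added, the sign in HDM + Dex vs. saline changed for mt-Co2 −0.39. Divided by the plus-strand mRNAs, the log2 fold changes that changed sign in HDM + Dex vs. saline were mt-Atp6 0.16 and mt-Rnr2 0.091. Without the 4 samples, the log2 fold changes that changed sign in HDM + Dex vs. saline were mt-Atp6 0.075, mt-Co3 0.017, mt-Cytb 0.027, mt-Nd3 0.14 and mt-Nd4 0.053. With sex and the 7SL share as covariates, the log2 fold changes that changed sign in HDM + Dex vs. saline were mt-Atp6 0.019, mt-Co1 0.16, mt-Co3 0.25, mt-Cytb 0.10, mt-Nd4 0.082 and mt-Rnr2 0.058. With the 7SL share as covariate, the log2 fold changes that changed sign in aged vs. adult were mt-Nd4l −0.0094, mt-Nd5 −0.029 and mt-Nd6 −0.18. Divided by the plus-strand mRNAs, the log2 fold changes that changed sign in aged vs. adult were mt-Atp6 −0.13, mt-Co2 −0.10, mt-Nd1 −0.092, mt-Nd3 −0.20, mt-Nd4l −0.22, mt-Nd5 −0.11, mt-Nd6 −0.14, mt-Rnr1 −0.15 and mt-Rnr2 −0.32. Without the 4 samples, the log2 fold changes that changed sign in aged vs. adult were mt-Atp8 −0.12, mt-Co1 −0.022, mt-Co3 −0.013, mt-Cytb −0.16, mt-Nd1 −0.039, mt-Nd2 −0.067, mt-Nd3 −0.10, mt-Nd4 −0.11, mt-Nd4l −0.42, mt-Nd5 −0.14 and mt-Nd6 −0.32. With sex and the 7SL share as covariates, the log2 fold changes that changed sign in aged vs. adult were mt-Nd5 −0.076 and mt-Nd6 −0.019. With 1 sample left out, the HDM + Dex vs. saline values ranged from −0.17 to 0.0395 for mt-Atp6, from −0.036 to 0.20 for mt-Co2 and from −0.074 to 0.25 for mt-Nd5.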
